A study of Mus musculus with 12 samples.

Results

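The mouse uncoupling proteins Ucp1, Ucp2 and Ucp3 are mitochondrial carriers, and their RNA levels were followed here across 4 fat depots. The members were the rows whose gene symbol was Ucp1, Ucp2 or Ucp3, which gave 3 of the 47729 genes in the tables. All 3 were among the 19154 genes that passed the filter on low counts. The tissues were interscapular brown fat (BAT) and 3 white depots, inguinal (IWAT), epididymal (EWAT) and retroperitoneal (RWAT), with 3 RNA-seq libraries each and 12 in all. Every library came from male wild type C57BL/6J mice aged 6 to 10 weeks on a standard, low-fat rodent diet. The fat had been surgically denervated in every one, so all 4 depots share that treatment. No innervated fat was analysed here, and depot was the only factor compared. Nothing in the labels states that 1 animal stands behind each library, so p-values here cover only how far these samples scatter, and that scatter may be technical.

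Uncoupling proteins sit in the inner mitochondrial membrane. UCP1 is the thermogenic protein of brown and beige adipocytes: opened by fatty acids and closed by purine nucleotides, it lets protons return to the matrix without making ATP, and the energy is released as heat. Noradrenaline from sympathetic nerves, thyroid hormone and PPAR-type nuclear receptors are known to drive transcription of its gene. UCP3 is found mainly in skeletal muscle and brown fat, where its gene follows the supply of fatty acids. UCP2 is expressed in many tissues and is abundant in macrophages and other immune cells, and it carries small organic acids across the membrane. Neither UCP2 nor UCP3 is held to replace UCP1 in cold-induced heat production.

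The members lie at 2 places in the genome (GRCm38). Ucp1 (ENSMUSG00000031710) occupies chr8:83290352-83298452 on the forward strand, with 6 exons in its principal transcript. Ucp3 (ENSMUSG00000032942) occupies chr7:100472990-100486432 and Ucp2 (ENSMUSG00000033685) chr7:100493337-100502020, both also on the forward strand, with 7 and 8 exons. The end of Ucp3 and the start of Ucp2 are 6904 bases apart. The coding sequences were 924 bases for Ucp1, 930 for Ucp2 and 927 for Ucp3, and 75.3% of aligned coding bases were identical between Ucp2 and Ucp3, against 63.2% between Ucp1 and Ucp3 and 61.9% between Ucp1 and Ucp2. No run of 75 bases, the length of a read, was shared between transcripts of any pair of members, so no full-length read without mismatches fits 2 of them. The exons of Ucp2 overlap those of Dnajb13 on the opposite strand, and 231 of its 7383 distinct 75-base runs (3.13%) also occurred in Dnajb13 transcripts. Whether reads were counted by strand is not given in the sources used here, and the 2 genes are uncertain to that extent.

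As a description of the 3 genes, the 250 bases before each RefSeq start site are shown. They are RefSeq sequences on GRCm38.p6, written 5′ to 3′ along the forward strand, chr8:83290098-83290347 for Ucp1, chr7:100493108-100493357 for Ucp2 and chr7:100472741-100472990 for Ucp3. Capitals mark matches to 4 motifs: TATAAA or TATATA as a TATA box, read on the printed strand only, GGGCGG as a GC box on both strands, CAGCTG as an E-box, which reads the same on both, and TGACGT or TGACGC as a CRE-like site on both strands.
Ucp1: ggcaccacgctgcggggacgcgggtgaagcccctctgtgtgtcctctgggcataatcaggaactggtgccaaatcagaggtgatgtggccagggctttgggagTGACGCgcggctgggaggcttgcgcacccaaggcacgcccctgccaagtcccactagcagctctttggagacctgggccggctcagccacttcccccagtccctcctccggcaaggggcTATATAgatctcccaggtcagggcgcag
Ucp2: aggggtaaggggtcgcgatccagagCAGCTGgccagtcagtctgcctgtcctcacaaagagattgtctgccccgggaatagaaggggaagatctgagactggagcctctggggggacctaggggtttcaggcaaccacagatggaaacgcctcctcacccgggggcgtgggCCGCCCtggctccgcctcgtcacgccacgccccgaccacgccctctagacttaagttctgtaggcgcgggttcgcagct
Ucp3: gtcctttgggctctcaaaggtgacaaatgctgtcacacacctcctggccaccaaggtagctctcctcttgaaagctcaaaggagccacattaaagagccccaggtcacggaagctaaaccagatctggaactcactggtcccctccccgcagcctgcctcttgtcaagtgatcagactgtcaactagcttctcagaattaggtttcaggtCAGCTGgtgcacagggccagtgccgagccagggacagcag
The Ucp1 window held TATATA, beginning 28 bases before the start, and TGACGC 147 bases before it. TATAAA or TATATA occurred in 11.5% of the 32851 RefSeq promoter windows of this length, and the CRE-like letters in 11.9%. The Ucp2 window held a GC box on the other strand, printed as CCGCCC, 79 bases before the start, and an E-box 225 bases before it. A GC box occurred in 32.7% and this E-box in 13% of all windows. The Ucp3 window held an E-box 40 bases before its start. GC content was 64.8% for Ucp1, 63.6% for Ucp2 and 54.8% for Ucp3, beside a median of 52.4% over all windows, and they held 12, 16 and 3 CpG sites, beside a median of 6. Distances are from the RefSeq start sites, which differ by some bases from the gene starts given above. The Ucp2 window therefore ends inside the gene as placed there. These matches describe the letters and show no binding.

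Library totals ran from 15699912 to 25633413 counts, and 3 counts, the limit that a count of 0 allows, corresponded to 0.128 to 0.236 CPM, the count relative to the TMM-scaled library total. That limit covers counting error only. CPM is used below to compare 1 gene between libraries, and the authors' TPM, which divides by transcript length, to compare genes within a library. Summed levels of cell type marker lists differed widely between libraries of BAT, IWAT and RWAT, and less within EWAT. The summed level of 14 brown and beige adipocyte markers, a list without Ucp1, was 280 to 3332 CPM in BAT, 68.4 to 449 CPM in IWAT, 19.6 to 32.2 CPM in EWAT and 21.0 to 140.3 CPM in RWAT. The sum of 18 skeletal muscle markers was 2704 to 23030 CPM in BAT. It was 18670 CPM in RWAT replicate 3 and between 20.5 and 89.8 CPM in the remaining 8 libraries. In bulk tissue, fewer cells of a type and less RNA per cell cannot be told apart.

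Ucp1 was highest in BAT and next in IWAT, and was at the limit of detection in EWAT. Replicates 1, 2 and 3 of BAT held 2962, 32.2 and 702 CPM of Ucp1. The IWAT libraries held 47.6, 129.8 and 21.5 CPM, the EWAT libraries 0, 0.0857 and 0.05 CPM, and the RWAT libraries 12.4, 1.31 and 0.163 CPM. BAT replicate 2 lay below replicates 1 and 2 of IWAT, so BAT and IWAT overlapped, while all IWAT libraries lay above all RWAT libraries and all RWAT libraries above all EWAT libraries. Within BAT the highest library was 92.0 times the lowest, and within RWAT 76.0 times, against 6.05 times within IWAT. By TPM, Ucp1 ranked 63 among all genes in BAT replicate 1, 177 in replicate 3 and 4267 in replicate 2. In BAT replicate 2 the Ucp1 level of 21.7 TPM was below all 3 IWAT libraries, which held 27.2, 93.6 and 23.0 TPM. By CPM, the measure used here between libraries, it lay above IWAT replicate 3 (32.2 against 21.5 CPM), so that order depends on the scaling.

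**Figure D1:**
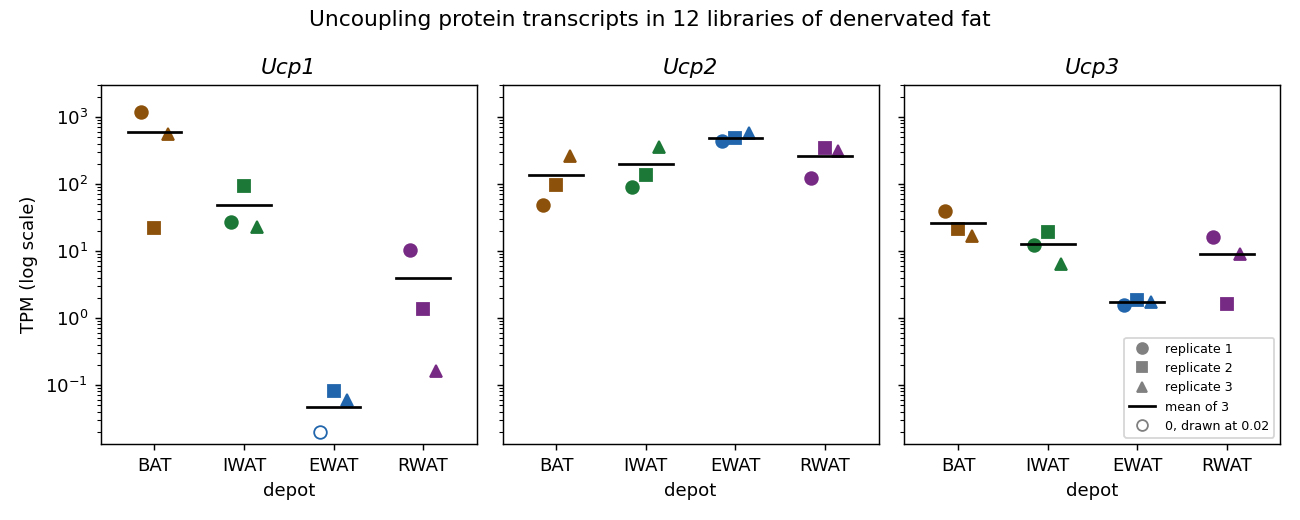
Level of Ucp1, Ucp2 and Ucp3 in each of the 12 libraries, as the authors' TPM on a log axis, with 1 point per library, a bar at the mean of each depot (n = 3) and an open circle for the EWAT library at 0. Ucp1 spans 0 to 1191 TPM and is high in BAT and IWAT, Ucp3 spans 1.54 to 39.2 TPM with the same order of depot means, and Ucp2 spans 48.9 to 566 TPM with EWAT at the top.

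Ucp1 rose in BAT over the mean of the 3 white depots, with a log2 fold change of 8.92 (SE 1.25, edgeR quasi-likelihood test, adjusted p = 0.0356). It was 1 of 19 genes called there, which is 0.0992% of all genes tested. It also rose in BAT over EWAT, by 14.47 (SE 2.54, adjusted p = 0.0418), where 0.783% of genes were called. Both values rest on EWAT levels near 0, so their size depends on the few counts in EWAT. DESeq2 gave 9.07 and 14.77 for the same comparisons. Over EWAT, edgeR gave 15.21 without EWAT replicate 2 and 14 without EWAT replicate 1. The first call was lost without any 1 of 9 libraries: BAT replicate 1 (7.18, adjusted p = 0.189), BAT replicate 3 (adjusted p = 0.0583), any EWAT library (adjusted p = 0.145 to 0.159), any IWAT library (adjusted p = 0.124 to 0.142) or RWAT replicate 2 (adjusted p = 0.0813). The second was lost without any 1 of 7: BAT replicate 1 (12.73, adjusted p = 0.137), BAT replicate 2 (adjusted p = 0.0588), EWAT replicates 2 and 3 (adjusted p = 0.16 and 0.11) or any IWAT library (adjusted p = 0.0521 to 0.0778).

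In the edgeR fit of all 12 libraries no other pair of depots gave a call for Ucp1, while DESeq2 called 3 more, BAT over RWAT (8.15), IWAT over EWAT (10.48) and EWAT over RWAT (−6.61). BAT averaged 1232 ± 1535 CPM and IWAT 66.3 ± 56.5 CPM (SD, n = 3 each), a log2 difference of 4.22 (SE 1.59, adjusted p = 0.998 by edgeR). The level was 4.62 ± 6.75 CPM in RWAT, from which BAT differed by 8.07 (SE 1.90, adjusted p = 0.319) and IWAT by 3.85 (SE 1.57, adjusted p = 0.871). IWAT over EWAT gave 10.25 (SE 2.30, adjusted p = 0.0772), and EWAT over RWAT gave −6.40 (SE 2.17, adjusted p = 0.359). These comparisons share libraries and are not independent of each other. Single libraries moved them: BAT over IWAT was 2.47 without BAT replicate 1 and 5.15 without IWAT replicate 2, and BAT over RWAT was 6.33 without BAT replicate 1. Without RWAT replicate 1, the highest of its depot, BAT over RWAT was 10.66, IWAT over RWAT 6.45 and EWAT over RWAT −3.81. IWAT over RWAT was 2.91 without IWAT replicate 2, EWAT over RWAT was −7.15 without EWAT replicate 2, and IWAT over EWAT ran from 9.32 to 11 with 1 library left out.

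Because EWAT held so few Ucp1 reads, counts describe it better than fitted folds. The EWAT libraries held 0, 2 and 1 Ucp1 counts, and the 3 counts together have a 95% Poisson interval of 0.619 to 8.77. RWAT replicate 3 also held only 3 counts, against 208 and 29 in RWAT replicates 1 and 2. Per summed count of a depot, Ucp1 was 15700 times as abundant in BAT as in EWAT (95% interval 5360 to 76000). The ratio to EWAT was 1070 (366 to 5190) for IWAT and 82.4 (27.9 to 402) for RWAT. These exact binomial intervals cover counting error only, not the spread between libraries. Without BAT replicate 1 the BAT ratio was 6800, without IWAT replicate 2 the IWAT ratio was 582, and without RWAT replicate 1 the RWAT ratio was 16.7, below its interval. Without EWAT replicate 2, which held 2 of the 3 EWAT counts, the ratios were 29100 for BAT, 1990 for IWAT and 153 for RWAT, and with 1 library left out they ranged from 6800 to 29100, 582 to 1990 and 16.7 to 153.

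Ucp3 followed the same order of depot means as Ucp1 over a much narrower range, and edgeR called no comparison in the fit of all 12 libraries with the filter and no replicate block, while DESeq2 called 3. The BAT libraries held 130.1, 42.7 and 27.9 CPM of Ucp3. The IWAT libraries held 28.5, 35.9 and 7.42 CPM, the EWAT libraries 2.58, 2.70 and 2.00 CPM, and the RWAT libraries 27.0, 2.07 and 12.8 CPM. All BAT and all IWAT libraries lay above all EWAT libraries, and all BAT libraries lay above all RWAT libraries, but neighbours in the order BAT, IWAT, RWAT and EWAT overlapped. The depot means were 66.9 ± 55.2 CPM in BAT, 24.0 ± 14.8 CPM in IWAT, 2.43 ± 0.375 CPM in EWAT and 14.0 ± 12.5 CPM in RWAT (SD, n = 3 each).

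The log2 difference of Ucp3 was 2.84 (SE 0.62, edgeR adjusted p = 0.0992) in BAT over the white mean and 4.78 (SE 0.98, adjusted p = 0.0562) in BAT over EWAT. It was 3.30 (SE 0.92, adjusted p = 0.14) in IWAT over EWAT. The DESeq2 calls were these 3, with log2 differences of 2.91, 4.86 and 3.32, where DESeq2 called 903, 3451 and 1406 genes in all. The other 4 comparisons gave adjusted p between 0.32 and 0.998 by edgeR. By edgeR, BAT over the white mean was called without RWAT replicate 1 (3.15, adjusted p = 0.0477), and BAT over EWAT without BAT replicate 3, RWAT replicate 1 or RWAT replicate 2 (4.78 to 5.24, adjusted p = 0.0391 to 0.0486). With no filter on low counts BAT over EWAT was also called (4.78, adjusted p = 0.047). The RWAT libraries set Ucp3 beside 2 marker lists. RWAT replicate 1, with 27.0 CPM of Ucp3, had 21000 CPM of adipocyte markers and 89.8 CPM of muscle markers. RWAT replicate 3, with 12.8 CPM, had 3033 CPM of adipocyte markers and 18670 CPM of muscle markers, and replicate 2, with 2.07 CPM, had 3889 and 89.6 CPM. None of the 18 muscle markers was at 0 in any BAT library or in RWAT replicates 2 and 3, and 1 to 5 were at 0 in the other libraries. In BAT replicates 1, 2 and 3, Ucp3 was 130.1, 42.7 and 27.9 CPM. The muscle markers there summed to 23030, 16240 and 2704 CPM, and the adipocyte markers to 24800, 26340 and 10650 CPM. In IWAT the muscle markers summed to 62.4, 53.5 and 28.2 CPM in replicates 1, 2 and 3. The part of muscle RNA in the Ucp3 values was not tested.

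Ucp2 ran the other way, with its highest level in EWAT and its lowest mean in BAT. The BAT libraries held 78.1, 88.4 and 212 CPM of Ucp2, the IWAT libraries 96.6, 127.8 and 236 CPM, the EWAT libraries 297, 333 and 342 CPM, and the RWAT libraries 101.1, 223 and 211 CPM. All EWAT libraries lay above all 9 others, while BAT, IWAT and RWAT overlapped. Pair by pair, EWAT lay wholly above BAT for 17.7% of genes tested, above IWAT for 13.1% and above RWAT for 8.18%. The share of genes with EWAT above all 9 others at once was not computed. The depot means were 126 ± 74.8 CPM in BAT, 153 ± 73.3 CPM in IWAT, 324 ± 24.0 CPM in EWAT and 178 ± 67.2 CPM in RWAT (SD, n = 3 each). Within a depot the highest library was 1.15 times the lowest in EWAT, against 2.72 times in BAT, 2.45 times in IWAT and 2.21 times in RWAT.

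In the edgeR fit of all 12 libraries, with no replicate block, no difference in Ucp2 was called. The log2 difference was −1.36 (SE 0.46, adjusted p = 0.104) in BAT over EWAT, −1.08 (SE 0.46, adjusted p = 0.286) in IWAT over EWAT and 0.86 (SE 0.46, adjusted p = 0.645) in EWAT over RWAT. It was −0.71 (SE 0.39, adjusted p = 0.331) in BAT over the white mean. DESeq2 called BAT over EWAT at a log2 difference of −1.34, where it called 3451 genes in all. By edgeR, Ucp2 was called there without BAT replicate 3 (−1.87, adjusted p = 0.0486). BAT over IWAT (−0.28) and IWAT over RWAT (−0.22) were small beside their SE of 0.45 each, and each changed sign when 1 library was left out: 0.17 without IWAT replicate 3 and 0.030 without IWAT replicate 1.

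The summed level of 14 macrophage markers was high in the libraries high in Ucp2. These markers, none at 0 in any library, summed to 1235, 1671 and 6682 CPM in BAT, 2065, 3737 and 7132 CPM in IWAT, 7144, 9742 and 9701 CPM in EWAT and 2266, 6445 and 5994 CPM in RWAT. Replicate 3 was the highest library of BAT, and of IWAT, for both Ucp2 and these markers, and replicate 1 was the lowest of RWAT for both. Single markers differed from the sum. Adgre1, which encodes the macrophage surface protein F4/80, was 35.3, 60.1 and 291 CPM in BAT and 369, 416 and 489 CPM in EWAT. Cd163, a haemoglobin scavenger receptor of macrophages, was 114, 146 and 178 CPM in BAT and 159, 128 and 54.7 CPM in EWAT, lowest in the EWAT library that held the most Ucp2. In BAT over EWAT edgeR called 0 of the 14 markers, with 4 at an unadjusted p under 0.05 and 3 called lower by DESeq2, and 1 of the 14 differences was positive. Among all 19154 genes tested, 5300 had an unadjusted p under 0.05 in that comparison. The part of macrophage RNA in the Ucp2 values was not tested.

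**Figure D2:**
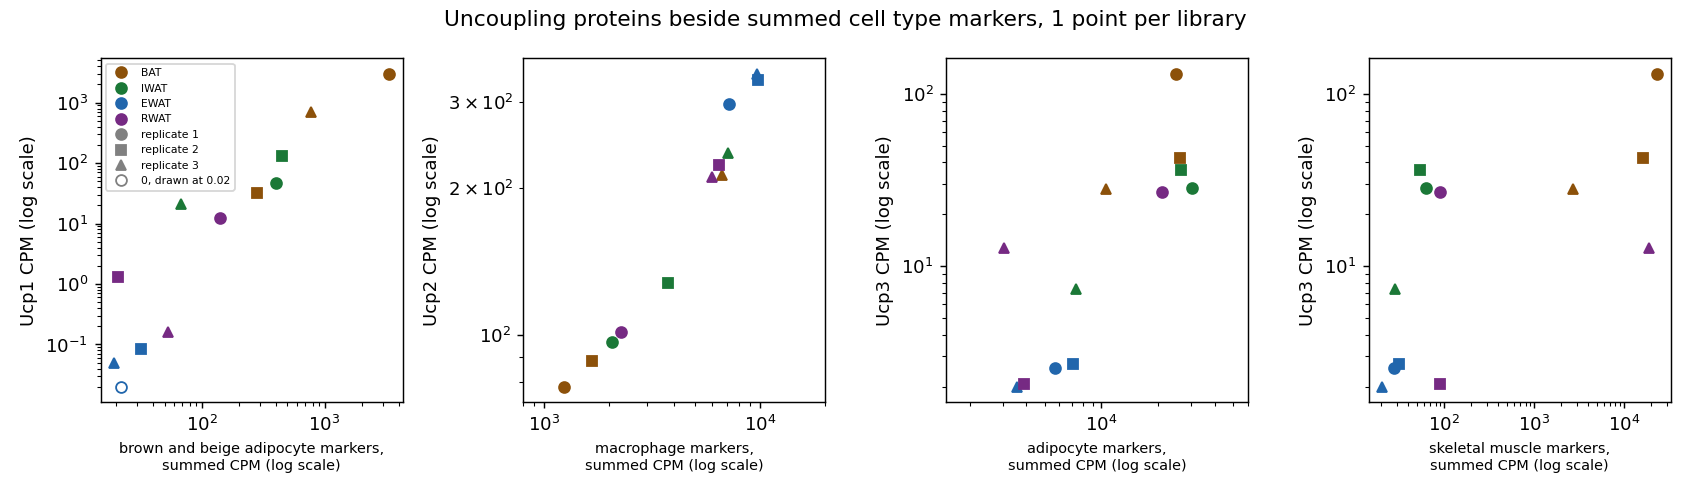
Level of an uncoupling protein gene against the summed level of a cell type marker list, with 1 point per library and all axes in CPM on log scales. From left to right: Ucp1 against 14 brown and beige adipocyte markers, Ucp2 against 14 macrophage markers, Ucp3 against 10 adipocyte markers and Ucp3 against 18 skeletal muscle markers, where RWAT replicate 3 stands at 18670 CPM of muscle markers and 12.8 CPM of Ucp3.

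The balance among the 3 genes differed between depots and between libraries of BAT. As a share of the summed TPM of the 3 genes, Ucp1 made up 93.1%, 15.6% and 66.9% in BAT replicates 1, 2 and 3, with 3.82%, 69.0% and 31.2% for Ucp2. In IWAT, Ucp1 held 20.9%, 37.4% and 5.94%, and Ucp2 held 69.6%, 55.1% and 92.4%. In EWAT, Ucp2 held 99.6% to 99.7%. In RWAT it held 82.4%, 99.2% and 97.2%. Ucp2 was therefore the most abundant uncoupling protein transcript per length in all 9 white libraries and in BAT replicate 2, and Ucp1 in BAT replicates 1 and 3.

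Ratios of TPM within a library show the same spread. Ucp1 was 24.4, 0.227 and 2.15 times Ucp2 in BAT, and 0.300, 0.678 and 0.0642 times Ucp2 in IWAT. Against Ucp3, Ucp1 was 30.4, 1.02 and 34.1 times as abundant in BAT, and 2.20, 4.97 and 3.54 times in IWAT. In RWAT this ratio was 0.627, 0.850 and 0.0180, so Ucp3 exceeded Ucp1 in each RWAT library, as it did in each EWAT library. Ucp3 held 1.96% to 15.3% of the summed TPM in BAT, 1.68% to 9.48% in IWAT, 0.303% to 0.393% in EWAT and 0.457% to 10.8% in RWAT, and it was the most abundant of the 3 in no library.

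**Figure D3:**
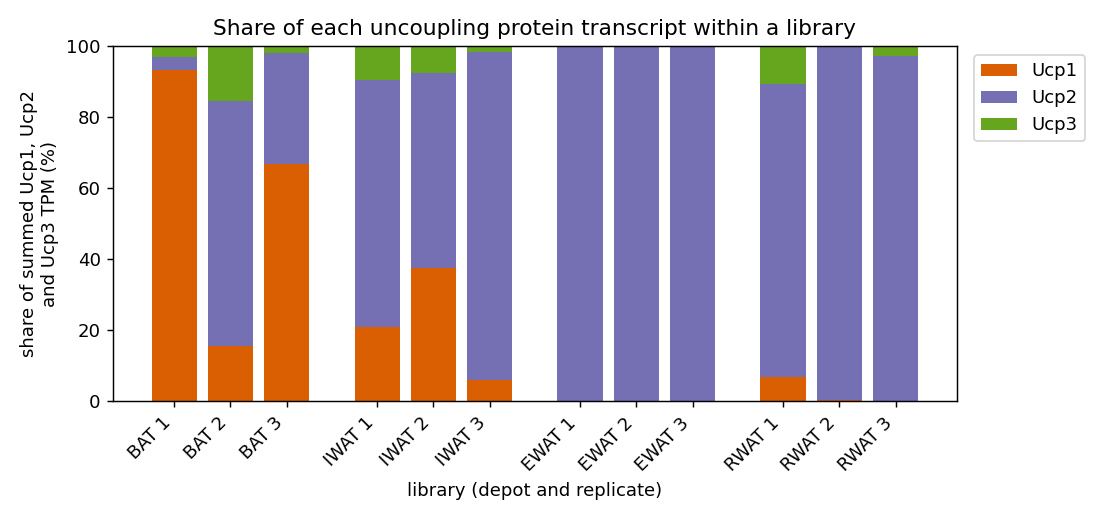
Share of each gene in the summed TPM of Ucp1, Ucp2 and Ucp3, in percent, with 1 stacked bar per library. Ucp1 fills 93.1% of the bar in BAT replicate 1 and 15.6% in BAT replicate 2, and Ucp2 fills at least 99.6% in each EWAT library.

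Across the 12 libraries, Pearson's r of log2 CPM was 0.865 between Ucp1 and Ucp3, −0.732 between Ucp1 and Ucp2 and −0.891 between Ucp2 and Ucp3. With the depot mean taken from each library, these were 0.468, −0.324 and −0.775. The values describe 12 libraries whose depots, cell makeup and scaling are shared by all 3 genes. By both measures the most negative value was between the neighbouring genes Ucp2 and Ucp3.

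Read against all genes, a separation between 2 depots was most common between EWAT and BAT or IWAT. The libraries of BAT and EWAT did not overlap for 36.8% of genes, and all 3 members were among them, with Ucp1 and Ucp3 higher and Ucp2 lower in BAT. IWAT and EWAT did not overlap for 25% of genes, again with all 3 members, Ucp1 and Ucp3 higher and Ucp2 lower in IWAT. BAT and RWAT did not overlap for 16.8% of genes, which included Ucp1 and Ucp3, both higher in BAT. EWAT and RWAT did not overlap for 14.8%, which included Ucp1, lower in EWAT, and Ucp2, higher in EWAT. For Ucp1 the nearest libraries held 2 counts (EWAT replicate 2) and 3 counts (RWAT replicate 3), within counting error of each other. IWAT and RWAT did not overlap for 6.68%, which included Ucp1, higher in IWAT. BAT and IWAT did not overlap for 6.76% and BAT and the 9 white libraries for 1.24%, and no member was among either.

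By the test itself, edgeR called 0.0104% of genes in BAT over IWAT, 0.0574% in BAT over RWAT, 0.345% in IWAT over EWAT, 0.0418% in EWAT over RWAT and 0% in IWAT over RWAT, with no member in any. In IWAT over RWAT, where edgeR called 0 genes, 847 had an unadjusted p under 0.05 and DESeq2 called 163, again with no member among the calls. Where DESeq2 called Ucp1 and edgeR did not, it called 306 genes in BAT over RWAT, 1406 in IWAT over EWAT and 783 in EWAT over RWAT.

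**Figure D4:**
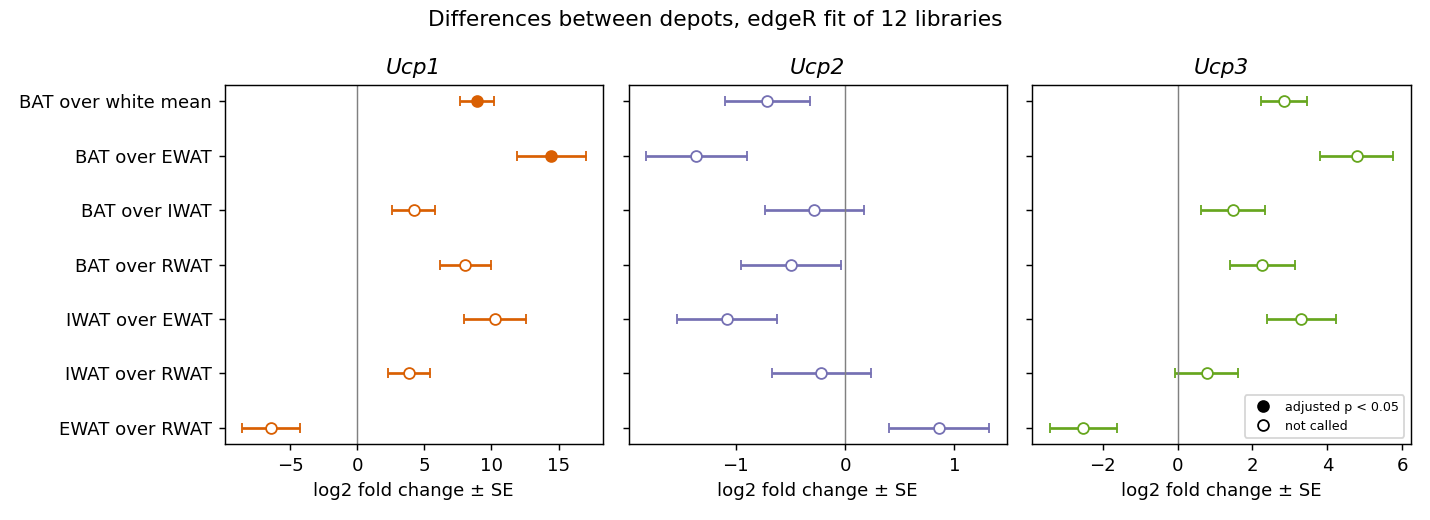
Log2 fold change of Ucp1, Ucp2 and Ucp3 in the 7 comparisons of depots, with bars of 1 SE from edgeR and filled points where the adjusted p is under 0.05. The filled points are Ucp1 in BAT over the white mean (8.92) and in BAT over EWAT (14.47), and Ucp2 lies on the negative side in each comparison except EWAT over RWAT (0.86).

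Genes known to act on uncoupling protein transcription mostly had positive differences in BAT, and how many were called differed between the tests. Of 24 tested regulators, which are receptors, coregulators and factors that act on these genes in either direction, 0 were called by edgeR in BAT over the white mean. There 14 of the 24 had an unadjusted p under 0.05 and DESeq2 called 9, all higher. The median log2 difference of the 24 was 0.94, with 21 positive, beside a median of −0.07 over all genes tested. The 10 adipocyte markers were all positive there too, with a median of 1, so a shift of this size was not particular to the regulators. Over all 19154 genes tested, 3476 had an unadjusted p under 0.05 in that comparison. The regulator with the highest mean log2 CPM was Srebf1, a factor of lipid synthesis (1.37, SE 0.56, adjusted p = 0.243). DESeq2 called 12 regulators in BAT over EWAT, all higher, and by edgeR 3 rose: Ppargc1a, the PPAR coactivator of mitochondrial genes (4.09, SE 0.76, adjusted p = 0.0473), Ebf2, a determinant of brown adipocytes (2.08, SE 0.29, adjusted p = 0.0285), and Irf4, a partner of Ppargc1a in thermogenic transcription (2.33, SE 0.44, adjusted p = 0.0485).

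Within BAT the levels of these regulators spread less than that of Ucp1. Ebf2 was 65.8, 66.2 and 43.7 CPM in BAT, 52.0, 62.8 and 33.7 CPM in IWAT, 17.5, 12 and 12.1 CPM in EWAT and 45.1, 30.3 and 35.8 CPM in RWAT. BAT replicate 2, low in Ucp1, thus held as much Ebf2 as replicate 1, and RWAT held more Ebf2 than EWAT in each library. Ebf2 did not stand for the whole list, which had 25 regulators, 24 of them tested. Averaged as log2 CPM, the list was lower in BAT replicate 2 (5.39) than in BAT replicate 1 (6.09), and stood at 5.26 in BAT replicate 3. Ppargc1a was 30.7, 14.9 and 15 CPM in BAT and 1.05, 1.72 and 0.751 CPM in EWAT. Irf4 was 38.5, 31.3 and 25.3 CPM in BAT and 7.54, 6.38 and 4.95 CPM in EWAT. Ebf2 also rose in IWAT over EWAT (1.83, SE 0.28, adjusted p = 0.0318), the only regulator edgeR called there, where DESeq2 called 5. Each of these 4 calls was lost without any 1 of BAT replicates 1 and 2, EWAT replicates 2 and 3 and IWAT replicate 1. All but Ebf2 in BAT over EWAT were also lost without IWAT replicate 2. Their adjusted p then reached 0.17 for Ppargc1a, 0.179 for Irf4, and 0.114 and 0.17 for Ebf2 in BAT and in IWAT.

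The pathway that feeds fatty acids to these carriers gave 0 calls by edgeR in BAT over the white mean. In that comparison 3476 of the 19154 genes tested had an unadjusted p under 0.05. All 13 genes from the adrenergic receptors to lipolysis were positive, with a median log2 difference of 1.05, 7 at an unadjusted p under 0.05 and 2 called by DESeq2. For the 10 adipocyte markers, also all positive, the median was 1. The highest mean log2 CPM was that of Lipe, hormone-sensitive lipase (1.26, SE 0.67, adjusted p = 0.323). Of 16 genes of fatty acid delivery and oxidation, 15 were positive, with a median of 1.91, 12 at an unadjusted p under 0.05 and 12 called higher by DESeq2. The highest mean log2 CPM was that of the fatty acid carrier Fabp4 (0.83, SE 0.52, adjusted p = 0.38). The only negative one was Cpt1a, the liver-type enzyme that admits fatty acids to mitochondria (−0.87, SE 0.41, adjusted p = 0.288), with 81.6 ± 51.9 CPM in BAT, 113 ± 51.7 CPM in IWAT, 208 ± 22.6 CPM in EWAT and 142 ± 59.2 CPM in RWAT (SD, n = 3 each), the same order of depots as Ucp2.

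Other mitochondrial carriers and other heat-producing pathways also gave 0 calls by edgeR in BAT over the white mean. The unadjusted p was under 0.05 there for 3476 of all 19154 genes tested. Of 7 carriers related to the members or able to move protons, the median log2 difference was 0.72, with 3 at an unadjusted p under 0.05 and 1 called by DESeq2. The highest mean log2 CPM was that of Slc25a5, an ADP/ATP carrier (0.72, adjusted p = 0.228), with 404 ± 161 CPM in BAT and 202 ± 12.4 CPM in EWAT (SD, n = 3 each). Of 12 tested genes of UCP1-independent thermogenesis, by creatine or calcium cycling and related routes, the median was 0.81, with 6 at an unadjusted p under 0.05 and 5 called by DESeq2, of which 4 were higher and 1 lower. The highest mean log2 CPM was that of the calcium pump gene Atp2a2 (0.30, SE 0.22, adjusted p = 0.431), and its sign turned without BAT replicate 1 (−0.11). Atp2a1, the calcium pump of fast muscle, is also on the muscle list. It was 1620, 1050 and 166 CPM in BAT and 844 CPM in RWAT replicate 3, against at most 2.31 CPM in the other 8 libraries. Atp2a1 was not alone in this. Ryr1 was 523, 317, 60.8 and 432 CPM in the same libraries and at most 5.44 CPM in the others. Ckmt2 was 68.8, 48.3, 9.88 and 17.1 CPM, against at most 0.8 CPM. Of the 12 tested genes, 8 were positive in BAT over the white mean. The summed level of the thermogenesis list was 1708 CPM in RWAT replicate 3 and 284 and 362 CPM in replicates 1 and 2. The 18 muscle markers were all positive in BAT over the white mean, with a median log2 difference of 7.29, and their part in these values was not tested.

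Of the 14 brown and beige adipocyte markers, 3 rose by edgeR beside Ucp1 in BAT over the white mean: Cox7a1, a cytochrome c oxidase subunit, Elovl3, a fatty acid elongase, and Lhx8, a homeobox gene of brown preadipocytes. In BAT over EWAT 5 rose: these 3, the cytochrome c oxidase subunit Cox8b, and Ppargc1a. In BAT over RWAT and in IWAT over EWAT Lhx8 was the only one edgeR called. DESeq2 called 13 of the 14 higher over the white mean, 13 in BAT over EWAT, 8 in BAT over RWAT and 8 in IWAT over EWAT. The calls of Cox7a1 and Elovl3 over the white mean were lost without any 1 of the 9 libraries that ended the Ucp1 call (adjusted p up to 0.284 and 0.404), while Lhx8 was called there and over EWAT in all 16 alternative fits. In BAT over EWAT the calls of Cox7a1, Cox8b and Elovl3 were lost without any 1 of BAT replicates 1 and 2, EWAT replicates 2 and 3 and IWAT replicates 1 and 2 (adjusted p up to 0.163, 0.184 and 0.182), those of Cox8b and Elovl3 also without IWAT replicate 3, and that of Elovl3 also without RWAT replicate 2. In BAT over RWAT the Lhx8 call was lost without BAT replicate 2 or 3, IWAT replicate 2 or RWAT replicate 1 or 2 (adjusted p up to 0.104). The brown and beige markers summed to 3332, 280 and 780 CPM in BAT replicates 1, 2 and 3 and to 404, 449 and 68.4 CPM in the IWAT libraries. BAT replicate 2 was thus below IWAT replicates 1 and 2 in this sum as well as in Ucp1. By the mean log2 CPM over the same 14 markers it lay between them, at 3.29 against 3.17 and 3.46. Adipocyte markers summed to 26340 CPM in BAT replicate 2 and 24800 CPM in BAT replicate 1. Their mean log2 CPM had the other order, 10.58 and 10.63. The part of cell makeup in the Ucp1 values was not tested.

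The genes around the members were followed for comparison. Protein-coding genes within 100 kb were C2cd3, Dnajb13, Coa4 and Mrpl48 for Ucp3 and Ucp2, and Tbc1d9, Elmod2, Mgat4d and Clgn for Ucp1. Of these 6 were tested, and edgeR called none in the 7 comparisons. In BAT over EWAT 4 had an unadjusted p under 0.05, as had 5300 of all 19154 genes tested. DESeq2 called 1 of the 6 higher and 3 lower there. Elmod2, the next gene beyond Ucp1, was 62.0 ± 1.42 CPM in BAT, 67.4 ± 13.5 CPM in IWAT, 34.1 ± 3.14 CPM in EWAT and 51.0 ± 21.2 CPM in RWAT. Tbc1d9, on its other side, was 15 ± 9.40 CPM in BAT, 20.3 ± 10.2 CPM in IWAT, 43.6 ± 12 CPM in EWAT and 26.2 ± 14.3 CPM in RWAT.

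Near Ucp2 and Ucp3, C2cd3 was 34.4 ± 0.709 CPM in BAT, 35.4 ± 3.42 CPM in IWAT, 32.4 ± 0.611 CPM in EWAT and 29.6 ± 4.55 CPM in RWAT. Mrpl48, of the mitochondrial ribosome, was 59.9 ± 15.8 CPM in BAT, 48.6 ± 4.98 CPM in IWAT, 42.7 ± 2.07 CPM in EWAT and 49.6 ± 6.95 CPM in RWAT. Coa4, a cytochrome c oxidase assembly factor, was 4.62 ± 1.3 CPM in BAT and 5.66 ± 0.721 CPM in EWAT. Dnajb13, which shares exon sequence with Ucp2, was 4.55 ± 1.73 CPM in BAT, 6.17 ± 3.26 CPM in IWAT, 11.1 ± 2.34 CPM in EWAT and 7.07 ± 0.701 CPM in RWAT, the order of depots that Ucp2 had. Mgat4d and Clgn did not pass the filter on low counts, which asks for counts in enough libraries, and Clgn was 20.3 ± 24.9 CPM in EWAT, against at most 0.113 CPM as a mean in the other depots. All of these are mean ± SD with n = 3.

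Genes with the most similar pattern were ranked by Pearson's r of log2 CPM among 9785 genes, over 12 libraries that share their depots and depth, as a description. Nearest to Ucp1 were Ramp2 (0.969), Cidea (0.947), Hspe1 (0.943), Azi2 (0.935) and Plin5 (0.934). Ramp2, a coreceptor of the adrenomedullin receptor, spanned 21.5 to 47.4 CPM where Ucp1 spanned 0 to 2962 CPM. Cidea, a lipid droplet protein, was 853, 52.1 and 236 CPM in BAT and 0.106, 3.77 and 0 CPM in EWAT, with BAT replicate 2 lowest of its depot as for Ucp1. With depot means removed, the nearest were Tinagl1 (0.911), Gpatch11 (0.878), Sema3g (0.873), Caskin2 (0.872) and S1pr1 (0.869), so none of the 5 was shared.

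For Ucp2 the nearest genes were Smap2 and Hpcal1 (0.991 each), Dnase2a (0.989), Fkbp15 (0.988) and Abr (0.987). With depot means removed they were Hist1h2bp and Fes (0.995 each) and Cpt1a, Ctsh and C1qb (0.994 each). C1qb, a complement subunit made by macrophages and 1 of the 14 macrophage markers, was 94.4, 96.3 and 376 CPM in BAT and 358, 461 and 456 CPM in EWAT. For Ucp3 they were Cables1 (0.978), Cox8b (0.977), Snx21 (0.975), Fxyd1 (0.974) and Cyb5d2 (0.973), and with depot means removed Snx21 (0.967), Ctsf (0.965), Pdk2 (0.963), Pex26 (0.962) and Dnajc28 (0.959). Snx21, a sorting nexin, was on both lists for Ucp3. It was 30.6, 23.2 and 19.7 CPM in BAT, 21.1, 23.6 and 15 CPM in IWAT, 13.6, 14.3 and 12.2 CPM in EWAT and 18.8, 11.9 and 16.4 CPM in RWAT.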

How the data were processed

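RNA-seq of 12 denervated fat libraries (3 each of BAT, IWAT, EWAT and RWAT) was used. Per the labels' protocols, total RNA freed of ribosomal RNA gave single-end reads of 75 bases. Tools named in the submitters' processing notes are Trimmomatic 0.36, DESeq2 1.10.1 and RSEM 1.3.0, and the build is GRCm38.p4. Neither annotation nor strand setting is stated in the sources used here. As deposited, values are RSEM expected counts per gene, not normalized, and the authors' TPM, which was used for levels within a library and for no test. Per the file headers, the tables also hold a posterior standard deviation of the count, TPM interval bounds and lengths. Of 47729 gene identifiers, 47224 matched GENCODE M21, used for coordinates and transcripts.

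Expected counts were rounded, filtered with filterByExpr to 19154 genes and then TMM-scaled. Testing used the quasi-likelihood F test of edgeR 4.0.16 under R 4.3.3, with all 12 libraries in 1 fit. Benjamini-Hochberg adjustment ran over all genes tested, with a call under 0.05. SE is the log2 fold change over the root of F. The mean of white depots is the mean of fitted log2 levels. Alternatives were DESeq2 1.42.0, RLE scaling, no filter, a replicate block and leaving out each library, 16 fits in all. The script was tested on simulated data. The biological coefficient of variation was 0.448, and no 2 libraries held identical values. Library totals were 15699912 to 25633413 counts. Levels are mean ± SD.

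The 3 members are named in each comparison. For each, the 5 genes of highest r, across libraries and after removing depot means, were taken from genes with a mean log2 CPM no lower than 3 (prior count 2) and a proper symbol. From each gene list, the called genes are named or, with none called, the one of highest mean log2 CPM. Adgre1, Cd163, Atp2a1, Ryr1, Ckmt2, Cox7a1, Cpt1a in its pathway, and the regulators called in BAT over EWAT were chosen after their values were seen. So were the count ratios with 1 library left out. The members and lists were chosen with earlier results of these data known.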

Additional observations from a re-analysis of the deposited data

How the results depend on the processing

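Of the 21 log2 differences of the 3 genes, 19 kept their sign in all 16 alternative fits. The exceptions were Ucp2 in BAT over IWAT, 0.17 without IWAT replicate 3 (range −0.82 to 0.17 with 1 library left out), and in IWAT over RWAT, 0.030 without IWAT replicate 1 (range −0.67 to 0.030). Atp2a2 in BAT over the white mean gave −0.11 without BAT replicate 1 (range −0.11 to 0.52). The causes were not tested.

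DESeq2 called more: for Ucp1, BAT over RWAT (8.15), IWAT over EWAT (10.48) and EWAT over RWAT (−6.61). For Ucp3 it called BAT over the white mean (2.91), BAT over EWAT (4.86) and IWAT over EWAT (3.32), and for Ucp2 BAT over EWAT (−1.34). Without a filter, Ucp3 in BAT over EWAT (4.78) was called.

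Leaving out 1 library gave 7.18 to 9.78 for Ucp1 and 1.92 to 3.27 for Ucp3 in BAT over the white mean. In BAT over EWAT it gave 12.73 to 15.21 for Ucp1, 3.86 to 5.24 for Ucp3 and −1.87 to −1.10 for Ucp2. Ucp3 was called in BAT over the white mean without RWAT replicate 1, and in BAT over EWAT without BAT replicate 3, RWAT replicate 1 or RWAT replicate 2.

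The genes called by DESeq2 numbered 903 in BAT over the white mean, 3451 in BAT over EWAT, 168 in BAT over IWAT, 306 in BAT over RWAT, 1406 in IWAT over EWAT, 163 in IWAT over RWAT and 783 in EWAT over RWAT, against 19, 150, 2, 11, 66, 0 and 8 by edgeR. Without a filter, 47 were called in BAT over the white mean and 4 in BAT over IWAT. With 1 library left out the counts ran from 1 to 263 in BAT over the white mean, 6 to 1996 in BAT over EWAT, 0 to 97 in BAT over IWAT, 0 to 45 in BAT over RWAT, 7 to 1097 in IWAT over EWAT, 0 to 3 in IWAT over RWAT and 0 to 804 in EWAT over RWAT.

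The labels do not say what the replicate numbers mean. Deviations from depot means correlated over 0.1 in 10 of 18 same-numbered pairs (−0.347 to 0.677, median 0.12) and in 10 of 36 other pairs (median −0.0932), and 7 of 12 libraries correlated best with their own number, a hint from the data and not from the design. Not every same-numbered pair passed 0.1, so the block is given here as an alternative. With the replicate number as a block, Ucp3 was called in BAT over the white mean (2.64) and in BAT over EWAT (4.47), and Ucp2 in BAT over EWAT (−1.52). The block gave 649 calls in BAT over the white mean, 3542 in BAT over EWAT, 0 in BAT over IWAT, 1 in BAT over RWAT and 123 in IWAT over EWAT. In BAT over the white mean it called 8 regulators, 10 brown and beige markers and 10 fatty acid genes higher. In BAT over EWAT it called 15 regulators higher and 1 lower, 11 brown and beige markers higher and 10 of 14 macrophage markers lower.

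With 3 libraries a depot, 1 BAT library low in Ucp1 and counts of 0 to 3 in EWAT, the size of the Ucp1 differences is loosely fixed.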
